A study of Mus musculus with 20 samples.

Results

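Reproduction in mammals is driven by a small chain of hypothalamic neurons, and 9 genes of that chain were followed here in 20 total RNA libraries of mouse hypothalamus, out of 53801 genes in the count tables. The genes were taken from a list of names: Kiss1, Tac2, Pdyn and Gnrh1, which encode peptides, and Tacr3, Esr1, Esr2, Pgr and Prlr, which encode receptors. That list was chosen with earlier results of these data known, the fall of Prlr among them. Kisspeptin neurons of the arcuate nucleus release kisspeptin together with neurokinin B and dynorphin, and so set the pulses in which gonadotropin-releasing hormone (GnRH) reaches the pituitary. Sex steroids act back on these neurons through oestrogen and progesterone receptors, and prolactin through its own receptor, which links lactation and stress to fertility. Of the 9 genes, 8 could be tested. Prlr fell in animals lacking Magel2 and Ndn, by 1.37-fold at night, and no change of the other 7 passed the test. The night call was lost when the 6 libraries with conflicting time labels were regrouped by the other label or left out. It was also lost without the 3 wild-type night libraries that had the highest Prlr levels of their group, a choice that makes the fall smaller by itself. Between libraries, the level of Prlr moved with that of long genes.

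Wild-type animals (WT) were C57BL/6J mice, and the others (KO) carried a deletion of both Magel2 and Ndn, neighbouring genes of the Prader-Willi region, in which hypogonadism is among the known clinical features when the paternal copies are lost. The label of the KO libraries words the genotype as a knockdown of magel2/necdin, and the series text as a double ko named MADIN. All animals were kept in 12 h of light and 12 h of dark, and tissue was taken 6 h after light on (day) or 18 h after it (night), which gives WT_day, WT_night, KO_day and KO_night with 5 libraries each. Age and the number of animals per library are not given in the sources used here, so the p-values measure the spread between these samples.

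The labels and the measured genes did not match in every library. Library totals ran from 32066289 to 48697647 counts. Ndn stood at 239 to 346 scaled CPM (a gene's counts in proportion to the library total, which is scaled by TMM factors) in 9 WT libraries and at 0.248 to 1.01 CPM in the 10 KO libraries. The library labelled WT_day 3 had 31.0 CPM of Ndn and 2.15 CPM of Magel2, which is 11.3% and 12.4% of what the 9 remaining WT libraries had on average. The time field contradicts the title in 6 libraries (WT_night 1, KO_day 1 and 2, KO_night 1, 2 and 3), and the title was followed here. Hypothalamic markers were present in every library, with summed levels over 7 genes of 669 to 858 CPM in WT_night, 902 to 1096 in KO_night, 833 to 975.2 in WT_day and 854 to 1062 in KO_day, so that the night groups did not overlap. Ddx3y, a Y-linked gene, had 2749 to 4791 counts and Xist 2 to 17 counts in each of the 20 libraries. Summed levels of 8 pituitary hormone and lineage genes ran from 6.03 to 785 CPM between libraries.

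The bases ahead of the starts of Prlr and Kiss1 are shown, since Prlr is the member that passed the test and Kiss1 the one that could not be tested. RefSeq (GRCm38.p6) held windows for 8 of the 9 genes, 12 in all, each of 250 bases ending at a transcription start. Matches on either strand to a STAT site (TTCNNNGAA, the letters that STAT5, the transcription factor of prolactin signalling, binds), an oestrogen response element half-site (AGGTCA), an E-box (CACGTG), a cAMP response element (TGACGTCA) or a TATA box (TATAAA) are in capitals.
Prlr start 1, chr15:10176988-10177237, + strand: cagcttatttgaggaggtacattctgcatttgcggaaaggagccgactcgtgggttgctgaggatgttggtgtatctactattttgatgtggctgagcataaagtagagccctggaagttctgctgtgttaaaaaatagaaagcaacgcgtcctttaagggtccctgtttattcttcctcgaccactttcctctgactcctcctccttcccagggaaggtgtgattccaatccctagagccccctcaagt
Prlr start 2, chr15:10223656-10223905, + strand: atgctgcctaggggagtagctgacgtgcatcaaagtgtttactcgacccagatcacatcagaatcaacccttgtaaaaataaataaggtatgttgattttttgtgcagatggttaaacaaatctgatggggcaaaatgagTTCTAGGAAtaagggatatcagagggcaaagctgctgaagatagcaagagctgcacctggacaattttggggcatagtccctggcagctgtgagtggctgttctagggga
Prlr start 3, chr15:10293401-10293650, + strand: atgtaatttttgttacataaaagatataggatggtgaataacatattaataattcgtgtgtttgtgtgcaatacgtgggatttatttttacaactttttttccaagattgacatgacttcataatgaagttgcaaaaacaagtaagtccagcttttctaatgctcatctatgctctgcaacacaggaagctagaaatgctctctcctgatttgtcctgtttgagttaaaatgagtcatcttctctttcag
Kiss1 start 1, chr1:133326962-133327211, + strand: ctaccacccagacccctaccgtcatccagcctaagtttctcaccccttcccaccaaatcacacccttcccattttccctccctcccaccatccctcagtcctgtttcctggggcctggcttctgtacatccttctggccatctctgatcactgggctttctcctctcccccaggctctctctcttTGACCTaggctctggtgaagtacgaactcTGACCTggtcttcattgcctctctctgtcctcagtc
The capitals in the second Prlr window mark a STAT match that begins 110 bases before the start. Both capital runs in the Kiss1 window mark oestrogen response element half-sites read from the other strand (TGACCT), at 65 and 36 bases before the start. This window lies inside the annotated Kiss1 gene (chr1:133321875-133329901), so the half-sites precede the RefSeq start but not the annotated start of the gene. Of 32851 windows of the same length, 7.02% held the STAT letters, 14.02% the half-site, 6.02% the E-box, 1.55% the cAMP element and 12.4% the TATA letters. These are letter matches only. The 3 Prlr starts are spread along a gene of 172 kb, and the deposited counts do not separate the transcripts that begin at them.

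Kiss1 (ENSMUSG00000116158, chr1:133321875-133329901, + strand of GRCm38), which encodes kisspeptin, had 0 counts in all 20 libraries. This 0 gave no level for the gene. Its 779 exon bases are all shared with 1 of the 2 genes named Gm28040 on the same strand, which also had 0 counts in every library, as did the other Gm28040 and Golt1a, which share 498 and 102 exon bases with Kiss1. Across the tables, no read was counted for 445 of 446 protein-coding genes (99.8%) that another gene on their strand encloses. Of 12001 such genes without any overlap, 1600 (13.3%) lacked counts. Kiss1 was therefore not tested in any comparison, and whether it differed between the groups cannot be read from these counts.

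The 8 other genes were counted in every library, from the 39 to 93 counts of Esr2 to the 1313 to 2212 counts of Pgr. Per kilobase of exon, their mean CPM over the 20 libraries was highest for Pdyn (8.94) and Tac2 (8.40), followed by Pgr (5.17), Gnrh1 (3.75), Tacr3 (3.18), Prlr (2.24), Esr1 (1.86) and Esr2 (0.498). The gap between Pdyn and Tac2 was smaller than the SD of either over the libraries, and that between Gnrh1 and Tacr3 was smaller than the SD of Gnrh1 but not that of Tacr3. Per kilobase of the whole gene, introns included, the order was the same except that Prlr (0.200) came before Tacr3 (0.113). Both scales are given because whether the counts include intronic reads is not given in the sources used here. In bulk tissue, fewer cells of a type and less RNA per cell cannot be told apart.

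**Figure D1:**
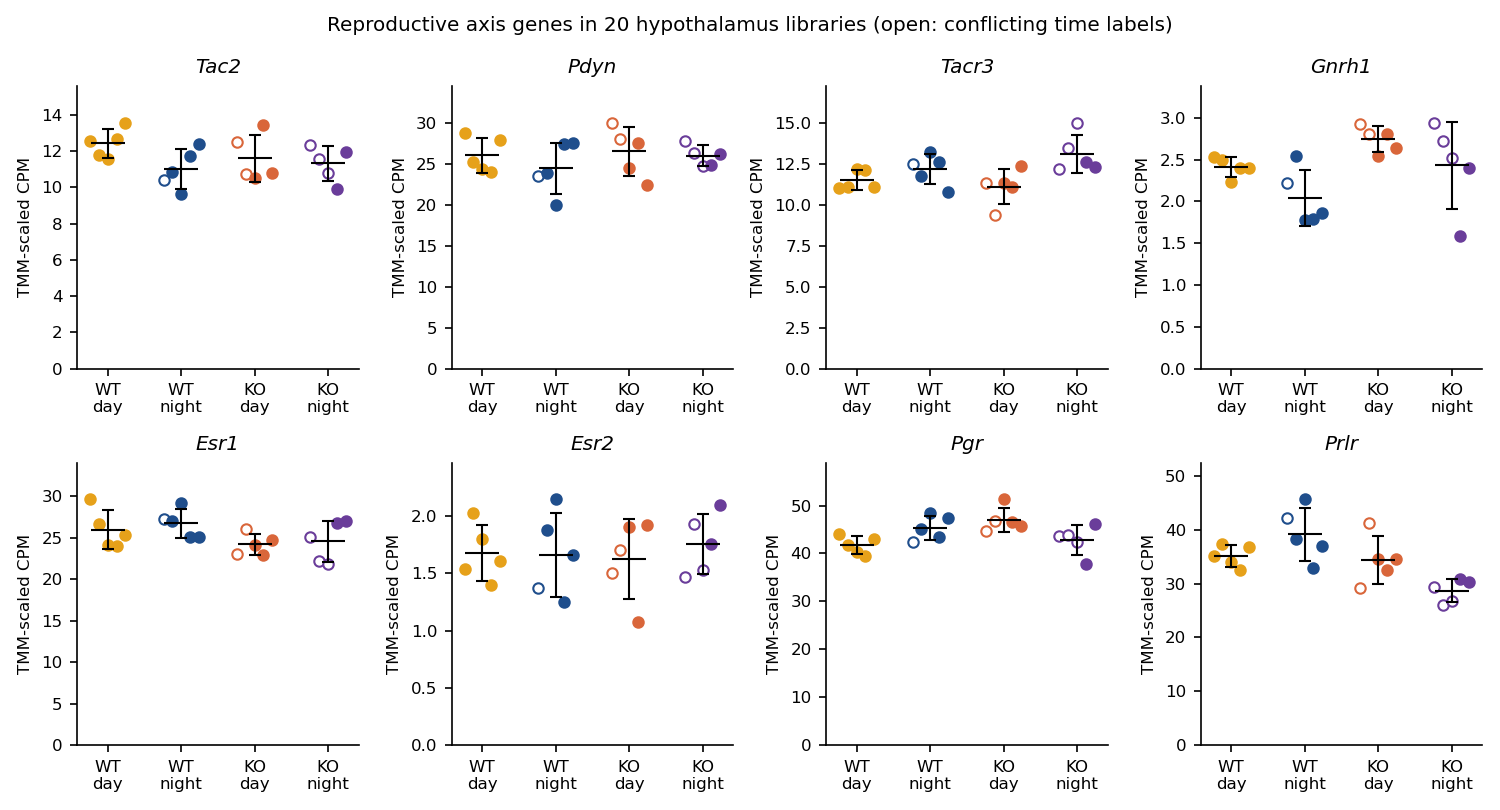
TMM-scaled CPM (y axis, from 0) of 8 genes in the 4 groups (x axis), with 1 point per library, replicates 1 to 5 from left to right, and the mean with its SD (n = 5) in black; open points are the 6 libraries whose time labels conflict. The 5 KO_night points of Prlr lie below all 5 WT_night points, and the KO_day points of Pgr and Gnrh1 lie above all WT_day points.

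The threshold for a call was an adjusted p under 0.05 (Benjamini-Hochberg) in edgeR's quasi-likelihood test over 22181 genes. For KO against WT averaged over day and night, 1 of the 8 tested members passed (Prlr), where 1.32% of all genes did. At night 1 of 8 passed (again Prlr), against 11.9% of all genes, so the share of members was near the background. By day 0 of 8 passed, against 0.113% of all genes, and 0 with DESeq2. At an unadjusted p under 0.05 there was 1 of 8 by day, where 2133 of the 22181 genes reached that level. For night against day, 0 of 8 passed in WT, where 0.275% of all genes did, and 0 of 8 in KO, where 0.0721% did. At an unadjusted p under 0.05 there were 2 and 3 such members, where 3533 and 3917 of all genes reached it, and with DESeq2 0 and 0 passed. The interaction, which asks whether the KO effect differs between night and day, was passed by 0% of all genes and 0 of 8 members in edgeR, by 4910 genes at an unadjusted p under 0.05, and by 1189 genes in DESeq2, Prlr and Pgr among them.

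Levels without any overlap between the 2 groups were found for 2 of the 8 members between WT_day and KO_day, where 2.72% of all tested genes had none. The corresponding count was 1 of 8 between WT_night and KO_night (5.07% of all genes), 0 of 8 between WT_day and WT_night (5.32%) and 0 of 8 between KO_day and KO_night (2.51%). The 3 cases are Gnrh1 and Pgr by day and Prlr at night.

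**Figure D2:**
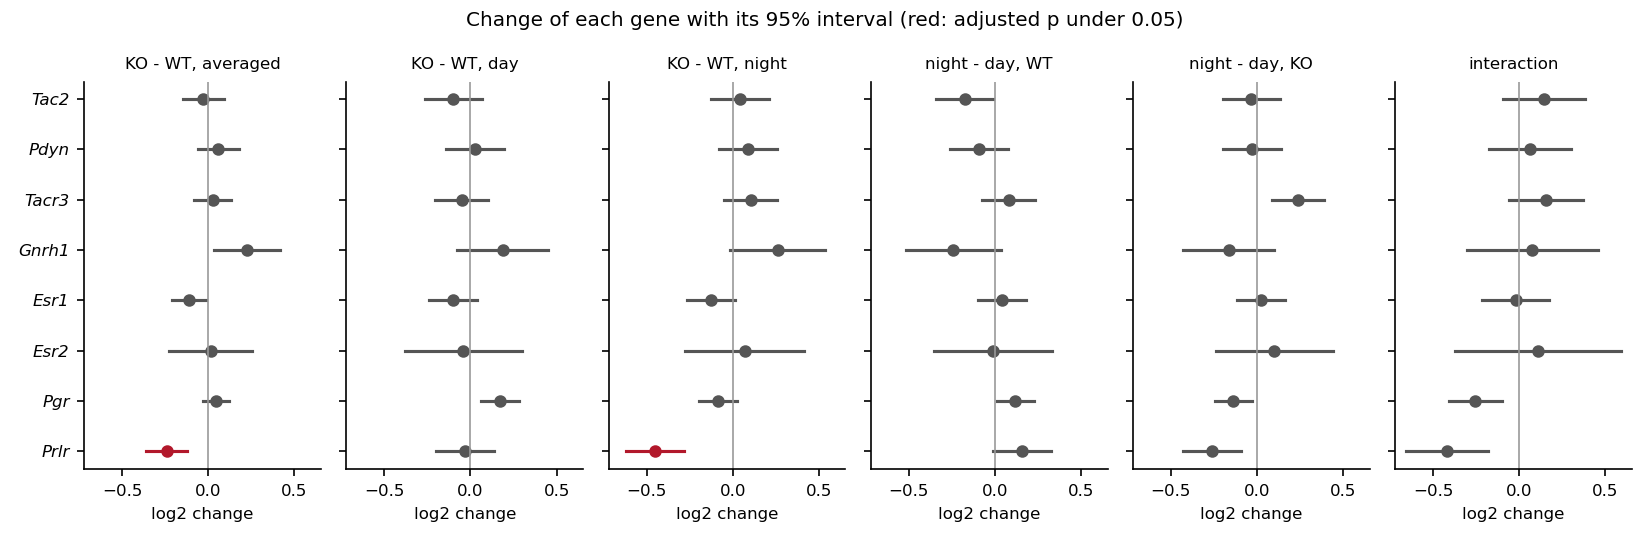
Log2 change (x axis) with its 95% interval for 8 genes (y axis) in the 6 comparisons (panels); red marks an adjusted p under 0.05. Prlr is red in the averaged and the night comparison of KO with WT, and every other interval is grey.

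Prlr (ENSMUSG00000005268, chr15:10177238-10349180, + strand) encodes the prolactin receptor, which signals through JAK2 and STAT5. It is known in the hypothalamus from kisspeptin neurons and from the dopamine neurons that hold prolactin secretion down. In replicates 1 to 5 its scaled CPM was 35.2, 37.3, 34.0, 32.5 and 36.8 in WT_day and 42.2, 38.2, 45.7, 32.9 and 36.9 in WT_night. The KO libraries had 29.1, 41.3, 34.5, 32.5 and 34.6 in KO_day and 29.4, 26.1, 26.9, 30.8 and 30.3 in KO_night. All 5 KO_night libraries were below the lowest WT_night library, while KO_day and WT_day overlapped, with KO_day 1 low and KO_day 2 high. The mean was 39.2 ± 4.92 in WT_night against 28.7 ± 2.11 in KO_night, and 35.2 ± 1.98 in WT_day against 34.4 ± 4.44 in KO_day (SD, n = 5 each).

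At night Prlr fell by 0.45 ± 0.0820 (SE) on the log2 scale, with a 95% interval of -0.62 to -0.28 and an adjusted p of 0.0084 in edgeR. Averaged over day and night it fell by 0.24 ± 0.0577 (SE) (adjusted p = 0.0386 in edgeR). By day the difference was -0.031 ± 0.0813 (SE) (adjusted p = 0.950 in edgeR), an interval of -0.20 to 0.14. The night effect differed from the day effect by -0.42 ± 0.115 (SE), which missed the threshold in edgeR (adjusted p = 0.0733) and passed it in DESeq2 (adjusted p = 0.0204). Night against day gave 0.16 ± 0.0813 (SE) in WT (adjusted p = 0.351) and -0.26 ± 0.0820 (SE) in KO (adjusted p = 0.120), both in edgeR, so neither passed. With groups from the time field the interaction was 0.016 and the KO value 0.099, both of the opposite sign. The KO value passed without KO_day 1 (-0.32, adjusted p = 0.0429), and the interaction in 4 of the 20 fits that left out 1 library (without WT_night 4, KO_day 1, KO_day 4 or KO_night 4, adjusted p from 0.0232 to 0.0471), all in edgeR.

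These calls differed in how they held under other choices of libraries. The night call was made in each of the 20 fits that left out 1 library (adjusted p from 0.00201 to 0.0322 in edgeR). Fits without a day library, the one labelled WT_day 3 among them (0.0103), keep all night libraries. They could change the night call only through the shared spread and scaling, so only the fits without a night library test it. The night call was lost when groups followed the time field in place of the title (-0.22, adjusted p = 0.918). It was also lost with the 14 libraries of agreeing time labels alone (-0.33, adjusted p = 0.242) and without WT_night 1, 2 and 3 (-0.28, adjusted p = 0.400), all in edgeR. Under these 3 choices the night calls over all genes went from 2649 to 4, 6 and 11, so the loss was not limited to Prlr. Agreeing labels left only KO_night 4 and 5 in KO_night, and the last choice only WT_night 4 and 5 in WT_night. WT_night 1, 2 and 3 had the highest Prlr levels of their group, so leaving them out makes the fall smaller by itself. With so few libraries, a smaller fall and a less certain one cannot be told apart in those fits. The averaged call was lost under the same 3 choices (adjusted p = 0.158, 0.199 and 0.372 in edgeR), where the calls over all genes went from 293 to 30, 58 and 19. It was also lost in 13 of the 20 fits that left out 1 library, with values of -0.24 to -0.21 and an adjusted p of up to 0.0883 in edgeR. These were the fits without WT_day 1, 2 or 5, WT_night 1, 2 or 3, KO_day 1, 3, 4 or 5, KO_night 2 or 3, or the library labelled WT_day 3 (-0.24, adjusted p = 0.0541).

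**Figure D3:**
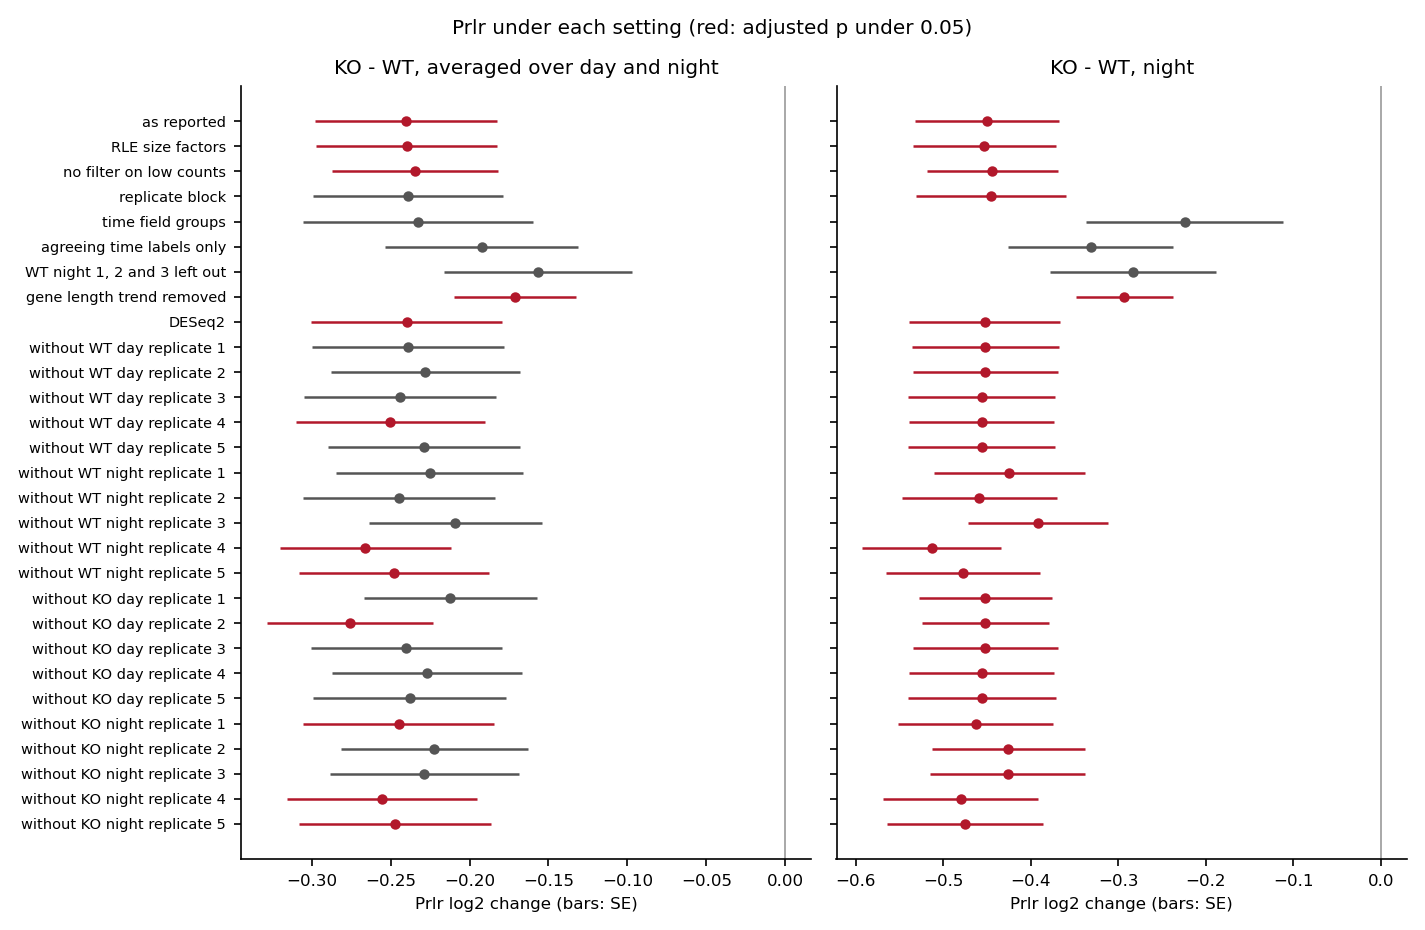
Log2 change of Prlr (x axis) with its SE under each setting (y axis), for KO against WT averaged over day and night (left) and at night (right); red marks an adjusted p under 0.05. All values are below 0, the night values are red except with the time field, with agreeing labels and without WT_night 1, 2 and 3, and the averaged values are grey in most fits that leave out 1 library.

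The level of Prlr moved with that of long genes. Over 2537 other genes spanning more than 100 kb, the mean log2 deviation of a library from the 20-library mean ran from -0.18 to 0.00088 in KO_night and from -0.049 to 0.23 in WT_night, where it was 0.12, 0.074 and 0.23 in WT_night 1, 2 and 3. In WT_day it ran from -0.021 to 0.024 and in KO_day from -0.095 to 0.094. At night 834 of these long genes fell and 11 rose in KO (median log2 change -0.17), while of 5224 genes spanning less than 10 kb 90 fell and 567 rose (median 0.11). With a trend on gene length removed from each library, the change of Prlr at night was -0.29 (adjusted p = 0.0107 in edgeR) and the averaged change -0.17 (adjusted p = 0.0273 in edgeR), so both calls were kept.

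**Figure D4:**
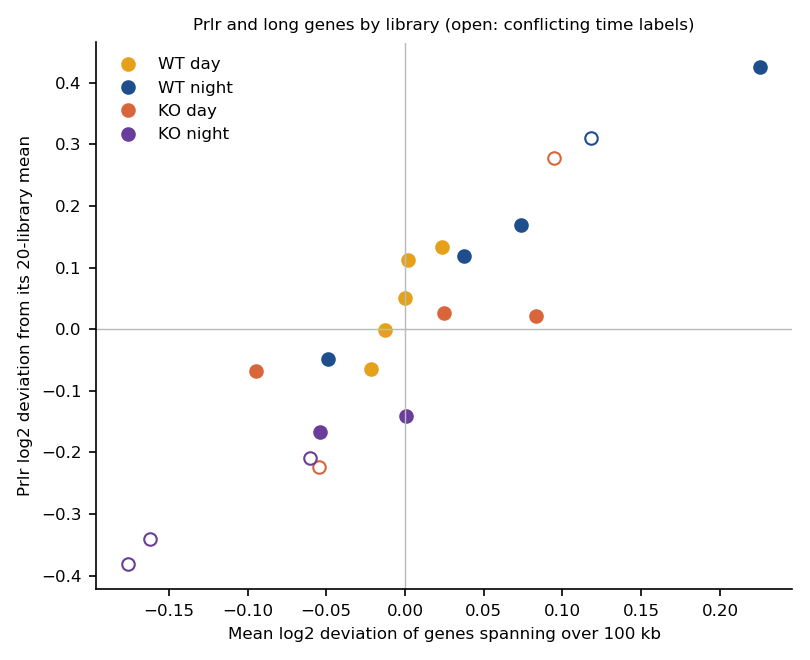
Log2 deviation of Prlr from its 20-library mean (y axis) against the mean log2 deviation of 2537 genes spanning over 100 kb (x axis), with 1 point per library coloured by group; open points have conflicting time labels. The highest point on both axes is WT_night 3, and the 2 lowest on both are KO_night 2 and 3.

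The 3 genes whose log2 scaled CPM followed Prlr most closely over the 20 libraries, among 17620 genes with a mean of at least 1 CPM, were Rtl4 (Pearson r 0.965), Hs3st5 (0.960) and Gm26905 (0.956), which span 433505, 327584 and 127432 bases. Choroid plexus is another tissue known for Prlr. Its 9 markers summed to 28.7 to 34.6 CPM in WT_night and 25.2 to 30.3 in KO_night, ranges that overlap. Of the 8 tested, 7 were lower in KO_night, and Kcnj13 alone passed (log2 change -0.57, adjusted p = 0.0127 in edgeR). Ttr, the most abundant transcript of that tissue, stood at 0.221 to 2.14 CPM in the 20 libraries, so most of the summed level came from the other markers of the list. Markers of thalamus and habenula (6 genes) summed to 359 to 625 CPM in WT_night and 294 to 410 CPM in KO_night, and Rora alone fell (log2 change -0.45, adjusted p = 0.0236 in edgeR). In WT_night 1 to 5 these sums were 528, 510, 625, 359 and 416 CPM, ranking the libraries as Prlr did. Striatal markers (6 genes, 0 called at night) summed to 262, 236, 313, 202 and 226 CPM there, with the same ranking. In KO_night the striatal sums were 169 to 242 CPM, and neither list ranked the libraries as Prlr did. Cortical and hippocampal markers (6 genes) summed to 9.01 to 13.2 CPM in WT_night and 10.6 to 20.3 CPM in KO_night. The medians were 11.39 and 11.43 CPM, and the highest sum was that of KO_night 1. Among these markers Slc17a7 alone rose (log2 change 2.07, adjusted p = 0.0319 in edgeR). Magnocellular markers (4 genes) summed to 313 to 441 CPM in WT_night and 500 to 627 CPM in KO_night without overlap, and Oxt (0.76, adjusted p = 0.000234 in edgeR) and Avp (0.45, adjusted p = 0.0182) rose. The summed hypothalamic markers, which include these 2 genes, did not overlap at night either, and were lowest in WT_night 1, 2 and 3 (777, 713 and 669 CPM). Of the tested markers, 1 of 8 for choroid plexus, 1 of 5 for thalamus and habenula and 1 of 6 for cortex and hippocampus passed at night. So did 2 of 4 magnocellular markers, beside 11.9% of all genes. A single call in lists this short is near that share. The part of these tissues and cells in the change of Prlr was not tested. Prlr also shares 203 exon bases with Gm21973 on the same strand, which had 75 counts in all 20 libraries together against 26259 for Prlr.

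Pgr (chr9:8899833-8968611, + strand) encodes the progesterone receptor, which oestrogen is known to induce in kisspeptin neurons and in the ventromedial nucleus. Its levels in replicates 1 to 5 were 44.1, 41.8, 40.2, 39.4 and 43.1 CPM in WT_day and 42.3, 45.1, 48.4, 43.5 and 47.3 in WT_night. They were 44.7, 46.8, 51.3, 46.7 and 45.6 in KO_day and 43.6, 43.9, 42.5, 37.7 and 46.1 in KO_night. All 5 KO_day libraries were above the highest WT_day library, and at night the groups overlapped, KO_night 4 being the lowest of the 20 libraries. The KO difference by day was 0.17 ± 0.0525 (SE) (1.13-fold, adjusted p = 0.221 in edgeR) and at night -0.084 ± 0.0527 (SE) (adjusted p = 0.292). Its interaction of -0.26 ± 0.0744 (SE) had an adjusted p of 0.0813 in edgeR and of 0.0299 in DESeq2. Of the 20 edgeR fits that left out 1 library, 1 passed (without WT_night 4, adjusted p = 0.0359). Night against day was 0.12 ± 0.0527 (SE) in WT (adjusted p = 0.274 in edgeR) and -0.14 ± 0.0525 (SE) in KO (adjusted p = 0.184).

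The oestrogen receptors showed no difference that passed. Esr1 (chr10:4611593-5005614, + strand), the receptor through which oestrogen feeds back on kisspeptin neurons, stood at 29.6, 26.7, 24.1, 24.1 and 25.4 CPM in WT_day and 27.3, 27.1, 29.3, 25.05 and 25.1 in WT_night. The KO values were 23.0, 26.1, 24.1, 23.0 and 24.8 in KO_day and 25.1, 22.2, 21.8, 26.7 and 27.0 in KO_night, and the groups overlapped at both times. Averaged over day and night, Esr1 differed by -0.11 ± 0.0475 (SE) (95% interval -0.21 to -0.014, adjusted p = 0.190 in edgeR). Esr1 spans 394 kb, more than any other member, and with the length trend removed this difference was 0.0059.

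Esr2 (chr12:76120419-76177259, - strand), the second oestrogen receptor, was the lowest of the tested members. WT libraries had 1.53, 2.03, 1.80, 1.40 and 1.61 CPM by day and 1.37, 1.87, 2.15, 1.25 and 1.66 at night. KO libraries had 1.505, 1.71, 1.90, 1.07 and 1.92 by day and 1.47, 1.93, 1.53, 1.75 and 2.10 at night, so that every pair of groups overlapped. Its averaged difference of 0.014 ± 0.117 (SE) had a 95% interval of -0.23 to 0.25 (adjusted p = 0.964 in edgeR), so changes within that interval are not excluded.

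Gnrh1 (chr14:67745181-67749439, + strand) encodes the peptide that the whole chain controls, in a small number of neurons scattered through the preoptic area. With 55 to 134 counts per library its levels were 2.53, 2.50, 2.24, 2.40 and 2.39 CPM in WT_day and 2.22, 2.55, 1.78, 1.78 and 1.86 in WT_night. In KO they were 2.93, 2.80, 2.54, 2.81 and 2.64 by day and 2.94, 2.72, 2.52, 1.58 and 2.40 at night. All 5 KO_day libraries lay above the highest WT_day library, and at night KO_night 4 was the lowest of all. Averaged over day and night the difference was 0.22 ± 0.0919 (SE) (1.17-fold, adjusted p = 0.179 in edgeR), and by day 0.19 ± 0.127 (SE) (adjusted p = 0.701). At night it was 0.26 ± 0.133 (SE) (adjusted p = 0.188 in edgeR). Without KO_night 4 the night difference was 0.38 (adjusted p = 0.0233) and the averaged one 0.28 (adjusted p = 0.0468), both in edgeR. In each comparison this was the only 1 of the 20 fits leaving out 1 library that passed. The lowest values were 0.175 at night (adjusted p up to 0.413) and 0.183 averaged (up to 0.302). With agreeing time labels alone the night difference turned its sign. Preoptic markers (6 genes) summed to 45.4 to 52.6 CPM in WT_day and 52.5 to 58.9 CPM in KO_day, and to 45.9 to 51.3 and 50.6 to 60.4 CPM in WT_night and KO_night. Among them Calcr, 1 of 6 tested, rose in KO averaged over day and night (log2 change 0.28, adjusted p = 0.0194 in edgeR), where 1.32% of all genes were called. The part of such tissue in the levels of Gnrh1 was not tested.

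Neither of the peptide genes that kisspeptin neurons express beside Kiss1 passed in any comparison. Tac2 (chr10:127724478-127731768, + strand) encodes neurokinin B, which excites these neurons. Its levels were 12.5, 11.8, 11.6, 12.7 and 13.6 CPM in WT_day and 10.4, 10.9, 9.60, 11.8 and 12.4 in WT_night. They were 12.5, 10.8, 10.5, 13.4 and 10.8 in KO_day and 12.3, 11.6, 10.8, 9.89 and 11.9 in KO_night. In WT, 3 of the 5 night libraries were below the lowest day library, and night against day was -0.18 ± 0.0809 (SE) (adjusted p = 0.294 in edgeR). KO against WT averaged -0.029 ± 0.0572 (SE), with an interval of -0.15 to 0.090 (adjusted p = 0.825 in edgeR).

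Pdyn (chr2:129686565-129699844, - strand) encodes dynorphin, which silences kisspeptin neurons, and is also made by vasopressin neurons and others. WT libraries had 28.8, 25.2, 24.4, 24.01 and 27.9 CPM by day and 23.5, 23.98, 20.1, 27.4 and 27.6 at night. KO libraries had 30.1, 28.1, 24.6, 27.6 and 22.5 by day and 27.9, 26.4, 24.7, 24.9 and 26.2 at night. Every pair of groups overlapped, WT_night 3 being the lowest library. The averaged difference was 0.057 ± 0.0573 (SE) (95% interval -0.061 to 0.18, adjusted p = 0.616 in edgeR). Avp, the vasopressin gene, rose in KO at night (log2 change 0.45, adjusted p = 0.0182 in edgeR), where Pdyn differed by 0.088 ± 0.0814 (SE).

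Tacr3 (chr3:134829007-134934579, + strand) encodes the receptor of neurokinin B. WT levels were 11.05, 11.1, 12.2, 12.1 and 11.1 CPM by day and 12.5, 11.8, 13.2, 12.6 and 10.8 at night. KO levels were 11.4, 9.40, 11.3, 11.1 and 12.4 by day and 12.2, 13.4, 15.01, 12.6 and 12.3 at night. In KO, 3 of 5 night libraries were above the highest day library, KO_day 2 was the lowest of the 20 and KO_night 3 the highest. Night against day in KO was 0.24 ± 0.0738 (SE) (1.18-fold, adjusted p = 0.119 in edgeR), and in WT 0.080 ± 0.0741 (SE) (adjusted p = 0.616). KO_day 2 and KO_night 3 are among the libraries with conflicting time labels, and with groups from the time field the KO value was -0.14.

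Levels of 2 pairs of members went together over the 20 libraries, which share their preparation and differ in group. Tac2 and Pdyn had a Pearson r of 0.706 (0.742 for the deviations from group means), and Esr1 and Prlr one of 0.694 (0.738). The lowest value was that of Pdyn and Tacr3, -0.501 (-0.602). Tac2 and Pdyn span 7.29 and 13.3 kb, Esr1 and Prlr 394 and 172 kb. The part of the shifts of long and short genes between libraries in these values was not tested. The genes closest in pattern were Snord104 (r 0.851), 2610001J05Rik (0.844) and Txndc17 (0.837) for Tac2, and Anxa5 (0.804), Ftl1 (0.773) and Pdpn (0.759) for Pdyn. For Gnrh1 they were Fam76a (0.817), Mcm6 (0.806) and Ptgr2 (0.795), and for Tacr3 Fam210b (0.809) and Adcy1 (0.799). Kcnh8 (0.855), 1700112D23Rik (0.847) and Gm21680 (0.843) were closest to Esr1, and Rab11fip4os1 (0.785), Tdrd9 (0.736) and Stk32c (0.696) to Esr2. For Pgr they were Gm16485 (0.830), Celf1 (0.828) and Cdc73 (0.791). None of these values reached those of Prlr with its 3 nearest genes.

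The genes of 4 pathway lists are given next, and their night calls stand beside the 11.9% of all genes called at night, with 1 of 11, 2 of 15, 0 of 11 and 2 of 14 tested genes called. The night count over all genes went from 2649 to 4, 6 and 11 with time-field groups, with agreeing time labels and without WT_night 1, 2 and 3, and the single genes named here and as markers were not followed through these choices.

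Of 13 further genes of peptide signalling onto and from GnRH neurons, among them the kisspeptin receptor gene Kiss1r, 11 were tested. At night 1 rose and 0 fell (6 higher, 5 lower, median log2 change 0.029 against 0.0051 over all genes). Nos1 stood at 53.0 ± 2.87 CPM in WT_night and 59.8 ± 2.29 CPM in KO_night (SD, n = 5). It was the gene that rose, and encodes the nitric oxide synthase of neurons around the GnRH cells (log2 change 0.17 ± 0.0555 (SE), adjusted p = 0.0427 in edgeR). Kiss1r stood at 6.27 ± 0.294, 5.54 ± 0.436, 5.69 ± 0.540 and 6.32 ± 0.427 CPM (SD, n = 5) by day and night in WT and by day and night in KO, in that order.

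All 15 genes of steroid receptors, steroid enzymes and their cofactors were tested, and at night 1 rose and 1 fell (5 higher, 10 lower, median -0.088). Pgrmc2, a membrane-bound progesterone-binding protein, rose from 50.6 ± 1.84 to 58.1 ± 4.22 CPM (log2 change 0.20 ± 0.0463 (SE), adjusted p = 0.0174 in edgeR). Ncoa2, a coactivator of nuclear receptors, fell from 145.7 ± 12.2 to 128.1 ± 7.71 CPM (log2 change -0.19 ± 0.0556 (SE), adjusted p = 0.0346 in edgeR).

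For prolactin signalling and the dopamine neurons that prolactin feeds back on, 11 of 11 genes were tested and 0 passed in any of the 6 comparisons. At night 6 were higher and 5 lower in KO, with a median of 0.032. Jak2, the kinase bound to the prolactin receptor, had 53.8 ± 1.14 CPM in WT_night and 52.6 ± 3.17 CPM in KO_night. Stat5b had 66.2 ± 1.59 and 67.7 ± 3.27 CPM, and Th, which encodes the enzyme that makes dopamine's precursor, 18.1 ± 3.26 and 19.6 ± 3.39 CPM (SD, n = 5).

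Of 16 genes linked to GnRH neuron development or the timing of puberty, 14 were tested. At night 0 rose and 2 fell (7 higher, 7 lower, median -0.018). Lepr, the leptin receptor gene, through which energy stores reach the reproductive axis, fell from 12.1 ± 0.306 to 9.26 ± 1.44 CPM (log2 change -0.39 ± 0.0926 (SE), adjusted p = 0.0185 in edgeR). Lin28b, an RNA-binding regulator of developmental timing, fell from 39.2 ± 3.49 to 33.5 ± 2.08 CPM (log2 change -0.23 ± 0.0675 (SE), adjusted p = 0.0348 in edgeR). Averaged over day and night, Dlk1, an imprinted gene tied to early puberty, rose (0.19 ± 0.0464 (SE), adjusted p = 0.0417 in edgeR), with 36.4 ± 1.61 and 37.5 ± 2.93 CPM in WT_day and WT_night and 43.5 ± 4.83 and 40.9 ± 2.09 CPM in KO_day and KO_night. Beside Dlk1, 0 genes of the 4 lists passed in the averaged comparison, and 0 by day, between night and day or in the interaction. Of all tested genes, 1.32% were called averaged, 0.113% by day and 0% for the interaction. Between the times of day, the share of all genes was 0.275% (WT) or 0.0721% (KO). In lists this short, 1 call or 0 calls are near these shares.

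Markers of the arcuate nucleus, where Tac2 and Pdyn neurons of this chain lie, summed to 63.7 to 96.1 CPM in WT_night and 69.7 to 103 CPM in KO_night over 6 genes. The highest sums were those of WT_night 4 and KO_night 2. These libraries also had the highest pituitary sums of their groups (152 and 269 CPM), and the part of pituitary tissue in the arcuate sums was not tested. Of the arcuate markers Npy alone, 1 of 6 tested, rose at night (log2 change 0.42, adjusted p = 0.0472 in edgeR), where 11.9% of all genes were called.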

How the data were processed

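Ribosomal RNA-depleted total RNA of mouse hypothalamus was sequenced as paired-end strand-specific libraries, per the labels. The deposited tables hold whole-number counts of reads for each gene, made by the authors with HISAT2 and featureCounts on mm10, per the submitters' processing notes. Versions, annotation and counting settings are not given in the sources used here. The WT_night 3 file has other column separators and was read as counts like the rest (entered as a value of other unit). Of 53801 genes, 53706 matched GENCODE M21 (GRCm38) by identifier, and symbols and positions come from it.

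Groups follow genotype and the first letter of the title. KO_day 5, whose title has no time letter, follows the time field, and WT_day 5 has a repeated title number. In 40 within-group pairs, chi-square per degree of freedom ran from 5.58 to 53.7, so no pair was a duplicate.

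In R 4.3.3, edgeR 4.0.16 (TMM, filterByExpr with a minimum count of 10) fitted 4 group means to 20 libraries by quasi-likelihood. Benjamini-Hochberg adjustment was over 22181 genes, with a threshold of 0.05. The fit was also run on counts simulated from the gene means and library sizes of these data, with genes drawn independently. Shifts shared by long genes were not simulated. "Rose" and "fell" are used of genes that passed. DESeq2 1.42.0, RLE factors, no filter, other time labels, libraries left out, a length trend removed by lowess and a replicate block were alternatives. Named genes are the 9 members, genes of 4 pathway lists and of the marker lists that passed, and the 3 genes with the highest Pearson r to each member, with Kiss1r, Jak2, Stat5b, Th and Ttr added for their roles after their values were seen. Some genes that this rule names are left out of the text. Members and lists were chosen with earlier results of these data known, the fall of Prlr among them. Intervals are at 95%.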

Additional observations from a re-analysis of the deposited data

How the results depend on the processing

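The night fall of Prlr passed with RLE factors, no filter, DESeq2, the length trend removed and each library left out. The averaged fall passed with the first 4 of these. Leaving out a day library does not change the night groups, so those fits do not test the night fall. The count of members called at night went from 1 to 0 with time-field groups, with agreeing time labels and without WT_night 1, 2 and 3, and the averaged count went from 1 to 0 under the same 3. Agreeing labels leave only KO_night 4 and 5 in KO_night, and the last choice only WT_night 4 and 5 in WT_night. With 1 library left out the counts ran from 1 to 2 at night, from 0 to 2 averaged, from 0 to 2 for the interaction, from 0 to 1 in night against day in KO, and stayed at 0 by day and in night against day in WT. DESeq2 called 2 members in the interaction. Over all genes, it called 1023 for the averaged effect, 184 by day, 409 and 550 in night against day in WT and KO, and 1189 in the interaction, where edgeR called 293, 25, 61, 16 and 0. With time-field groups, agreeing time labels and without WT_night 1, 2 and 3, in that order, edgeR called 4, 6 and 11 genes at night (2649 as reported), 30, 58 and 19 averaged, 149, 89 and 27 by day, 0, 104 and 9 for night against day in WT, 0, 11 and 138 for night against day in KO, and 0, 0 and 1 for the interaction. Without the filter on low counts edgeR called 60 by day, 108 and 70 in night against day and 105 in the interaction.

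The replicate numbers did not pair the libraries: same-numbered libraries had correlations of their deviations from -0.25 to 0.46, and 0 to 2 of 5 correlated best with their own number. With the replicate block the averaged count of members went from 1 to 0 (Prlr, -0.24, adjusted p = 0.0594 in edgeR), the night call was kept (adjusted p = 0.0194), and the block changed no other member call. It called 1690 genes at night where the fit without it called 2649, and 48 by day where that fit called 25.

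Some changes that missed the threshold turned their sign with the choice of libraries. With groups from the time field, the sign turned for Tacr3 (-0.089) in KO against WT at night, Esr2 (0.014) and Tacr3 (0.11) in KO against WT by day, Esr1 (0.10), Prlr (0.016) and Tacr3 (-0.20) in the interaction, Esr2 (0.096) in night against day in WT, Pdyn (0.092), Prlr (0.099) and Tacr3 (-0.14) in night against day in KO. With the 14 libraries of agreeing time labels, the sign turned for Esr1 (0.013), Gnrh1 (-0.0055) and Tac2 (-0.030) in KO against WT at night, Pdyn (-0.011) in KO against WT averaged, Pdyn (-0.068) and Tacr3 (0.012) in KO against WT by day, Esr1 (0.13) and Gnrh1 (-0.15) in the interaction, Esr2 (0.052) in night against day in WT, Pdyn (0.039) in night against day in KO. Without WT_night 1, 2 and 3, the sign turned for Pdyn (-0.080) and Tac2 (-0.094) in KO against WT at night, Pdyn (-0.027) in KO against WT averaged, Esr1 (0.071) and Pdyn (-0.11) in the interaction, Esr1 (-0.050), Pdyn (0.079) and Prlr (-0.0096) in night against day in WT. With the length trend removed, the sign turned for Esr1 (0.11) and Tac2 (-0.025) in KO against WT at night, Esr1 (0.0059) in KO against WT averaged, Esr1 (0.22) and Gnrh1 (-0.022) in the interaction, Esr1 (-0.055) in night against day in WT. With 1 library left out, log2 changes crossed 0 for Esr2 (-0.022 to 0.18) and Tac2 (-0.0059 to 0.084) in KO against WT at night, Esr2 (-0.025 to 0.073) and Tacr3 (-0.00065 to 0.056) in KO against WT averaged, Esr2 (-0.10 to 0.082), Pdyn (-0.018 to 0.095), Prlr (-0.10 to 0.027) and Tacr3 (-0.084 to 0.0088) in KO against WT by day, Esr1 (-0.079 to 0.018), Esr2 (-0.019 to 0.21), Gnrh1 (-0.015 to 0.19) and Pdyn (-0.012 to 0.10) in the interaction, Esr2 (-0.12 to 0.084) in night against day in WT, Esr1 (-0.020 to 0.061), Esr2 (-0.019 to 0.16), Pdyn (-0.092 to 0.014) and Tac2 (-0.075 to 0.019) in night against day in KO. The cause of these shifts was not tested. Esr2, with 39 to 93 counts, and Gnrh1, with 55 to 134, have the widest intervals, and counting error and spread between libraries were not separated in them.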
